A study of Homo sapiens with 6 samples.

Results

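Complex I, the NADH:ubiquinone oxidoreductase of the inner mitochondrial membrane, is described here through the messenger RNAs of its nuclear-encoded subunits and assembly factors. Members were the protein-coding rows whose symbol starts with NDUFA, NDUFAB, NDUFB, NDUFC, NDUFS, NDUFV or NDUFAF followed by a digit, and 48 of the 58735 rows met that rule. They comprised 7 core subunits, 30 accessory subunits, 8 assembly factors and 3 rows that carry the name without encoding complex I. The data were raw read counts per gene from 6 messenger RNA sequencing libraries of the established cell line MOLM-13. It derives from acute myeloid leukaemia and carries the fusion KMT2A-MLLT3 together with an internal tandem duplication in FLT3, and its genotype is given as WT. Control cultures (n = 3) were untreated. Treated cultures (n = 3) received 3.5 nM of 8p, a compound described as an inhibitor of RET and CDK kinases and labelled RET/CDK8i, against a stated IC50 of 7 nM. Both were incubated for 48 hours, and the labels do not say whether the controls received the solvent. All libraries come from a single cell line, so the spread is that between its 3 cultures in each group, which the submitters call independent.

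Complex I takes electrons from NADH at the tip of an arm that projects into the mitochondrial matrix, passes them along iron-sulfur clusters to ubiquinone, and pumps protons through a membrane arm. Its catalytic core is shared with bacteria. In human cells part of that core is encoded in the nucleus and the rest, the MT-ND subunits, in mitochondrial DNA. Accessory subunits surround the core, and assembly factors build the enzyme in modules without staying in it.

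With 8p, most nuclear complex I transcripts were lower, at a median of 51.3% of the control level, while the mitochondrially encoded subunits were higher. Of the 45 genes that encode complex I subunits or assembly factors, all 45 had enough counts to be tested, 35 fell and 3 rose (edgeR quasi-likelihood test, Benjamini-Hochberg adjusted p under 0.05 over all 13822 genes tested). Over all genes tested, 36.9% were called lower and 37.9% higher, with a median log2 fold change of 0.03 against −0.96 for the 45. The 3 values with 8p lay below all 3 control values for 36 of the 45 and above them for 4. Among all genes tested, 38.0% lay wholly below and 38.9% wholly above. In bulk RNA, fewer cells of a type and less RNA per cell cannot be told apart. Each fold change is relative to the bulk of genes, which the scaling takes as unchanged.

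Total counts were between 18834611 and 23485628 in control libraries, and between 14972069 and 16210861 with 8p. The share of counts in mitochondrially encoded genes was 1.77% ± 0.132 in controls against 8.80% ± 2.07 with 8p (SD, n = 3). The second principal component, with 4.61% of the variance, placed 8p replicate 2 at 35.0 and the other libraries with 8p at −16.7 and −18.6. Markers of the leukaemia line (PTPRC, SPI1, CD33, FLT3, HOXA9, MEIS1, LYZ and MPO) summed to between 2038 and 2165 CPM in controls and between 4728 and 5392 CPM with 8p. Of these 8 markers 4 rose and 3 fell, where 37.9% of all genes tested were called higher and 36.9% lower. LYZ made up most of the rise in the sum, from 1040.2 ± 60.0 to 3732 ± 369 CPM, and the other 7 summed to between 1063 and 1082 CPM in controls and between 1418 and 1445 CPM with 8p. The 6 T and B cell markers summed to at most 5.11 CPM, and HBB, EPCAM, KRT5 and COL1A2 had no count in any library. CPM stands for counts relative to the library size after scaling by trimmed mean of M values (TMM).

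**Figure D1:**
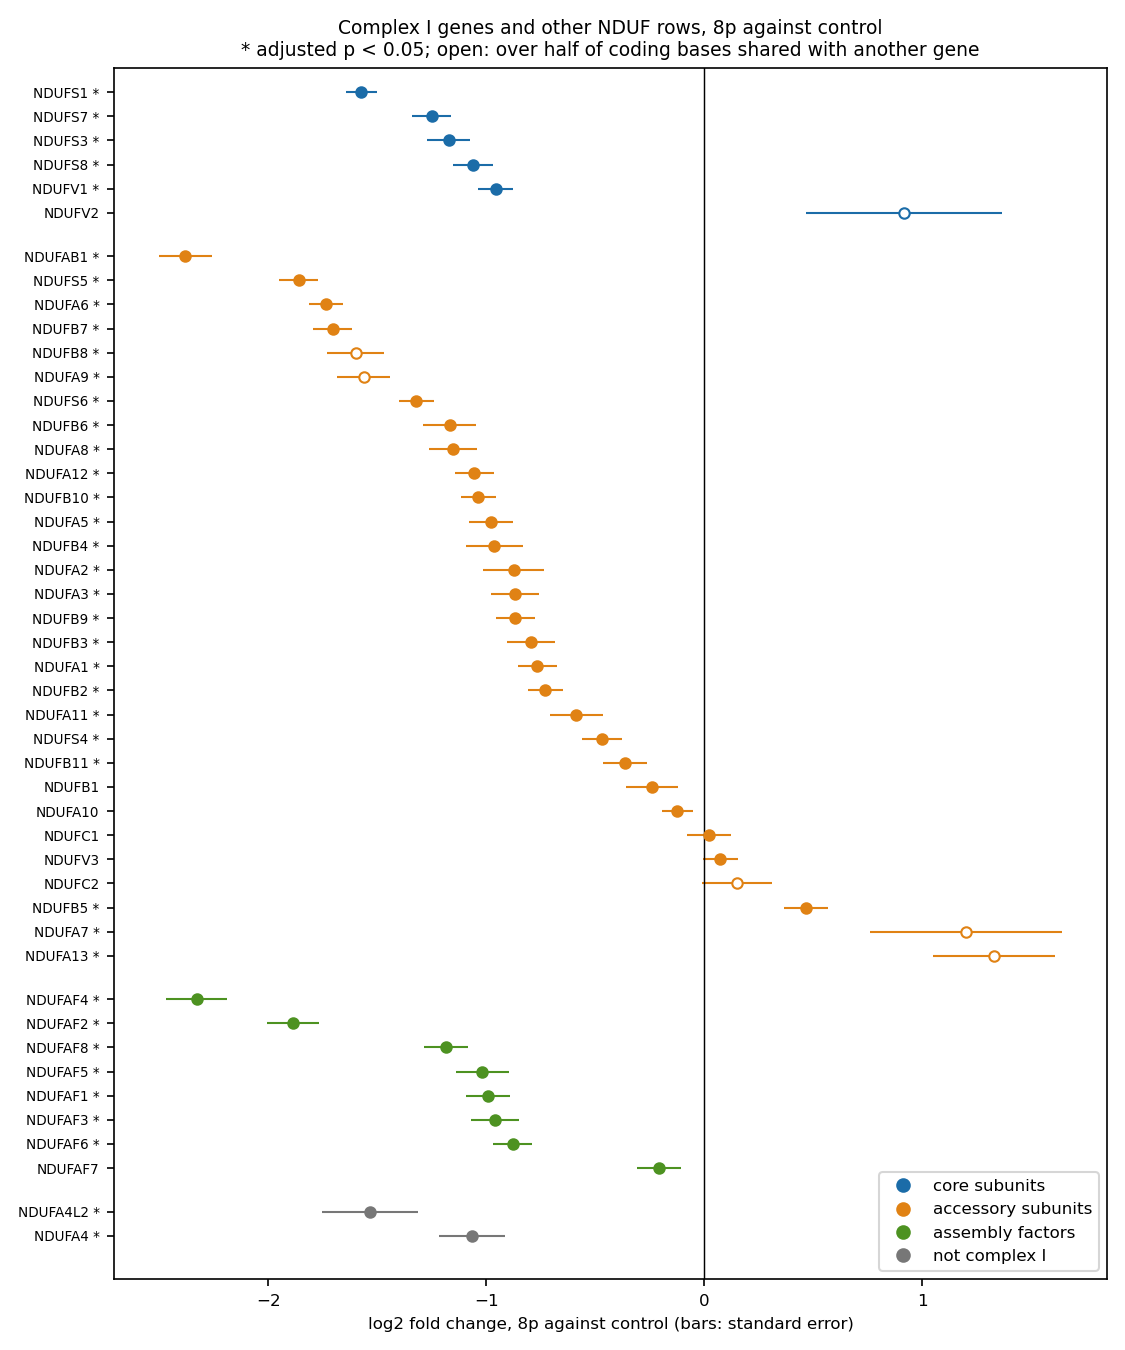
Log2 fold change with 8p against control (x axis) for the rows that could be tested, by class, with 1 core subunit not drawn, with bars of 1 standard error and a star for an adjusted p under 0.05. Open circles have at least 50% of their coding bases inside exons of another gene on the same strand. Filled circles lie left of 0 except NDUFC1, NDUFV3 and NDUFB5.

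Most core subunits were lower with 8p. Of the 7 nuclear core subunits 6 fell and none rose, with a median log2 fold change of −1.06. NDUFS1, the large iron-sulfur protein of the NADH-oxidising module, had 190.5, 190.0 and 199 CPM in control replicates 1 to 3 and 59.8, 68.9 and 65.9 CPM with 8p. Its 8p values were all far under its controls, at 33.6% of their level (log2 fold change −1.57, SE 0.07, adjusted p = 2.64e-11). The gene lies on chromosome 2, 206114817 to 206159603, minus strand (GRCh38). NDUFV1, which binds NADH and the flavin that takes its electrons, went from 267, 301 and 312 CPM to 139.6, 164 and 149 CPM (log2 fold change −0.96, SE 0.08, adjusted p = 2.32e-08).

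NDUFS7 carries the last iron-sulfur cluster before ubiquinone and lines its binding site. It had 60.1, 56.6 and 61.5 CPM in controls and 23.4, 25.8 and 25.6 CPM with 8p (log2 fold change −1.25, SE 0.09, adjusted p = 2.31e-09). Its groups did not overlap. NDUFS3, a scaffold of the ubiquinone module, went from 145, 162 and 189.7 CPM to 69.6, 82.1 and 68.4 CPM (log2 fold change −1.17, adjusted p = 2.92e-08), and NDUFS8, an iron-sulfur protein, from 88.2, 104 and 109 CPM to 45.9, 49.9 and 48.2 CPM (−1.06, adjusted p = 2.32e-08). Antisense transcripts overlap 48.5% of the coding bases of NDUFS7. Those antisense genes, AC005329.1 and AC005329.3, held 39 and 14 counts over the 6 libraries.

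NDUFV2, the core subunit that did not pass, holds an iron-sulfur cluster beside the flavin and was almost uncounted in all libraries. It had 13, 8 and 11 counts in controls and 10, 23 and 12 with 8p, or 0.507 ± 0.118 and 0.951 ± 0.377 CPM (SD, n = 3). Its log2 fold change of 0.92 (SE 0.45) did not pass the test (adjusted p = 0.0761), although the 3 values with 8p lay above the 3 controls. It was called higher with upper quartile scaling (1.1, adjusted p = 0.0357), and the value was 0.51 without 8p replicate 2. In GENCODE release 29, 84.7% of its coding bases also lie in exons of AP005263.1 on the same strand, a row with no count in any library. Its processed pseudogene NDUFV2P1 held more counts than NDUFV2 in every control library (44, 47 and 28). With 8p it held 10, 7 and 10 counts, in no library more than NDUFV2. The pseudogene thus fell by 1.67 on the log2 scale (adjusted p = 9.91e-04). The sources used here do not say how reads in exons of more than 1 gene were counted.

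Shared coding sequence marked 6 complex I members in all: NDUFV2, NDUFB8, NDUFA7, NDUFC2, NDUFA9 and NDUFA13, each with at least 50% of its coding bases in exons of another gene on the same strand. The threshold was chosen after these values were seen, and NDUFA11, at 36.9%, lay just outside it while NDUFA13, at 55.2%, lay just inside. The partners AC010323.1 of NDUFA7, AL133352.1 of NDUFB8, AC005833.1 of NDUFA9 and NDUFC2-KCTD14 of NDUFC2 held 24, 4, 5 and 0 counts over the 6 libraries, and AC011448.1 of NDUFA13 held 102. Per kilobase of exon, the control levels of the 6 ran from 0.187 CPM (NDUFV2) to 12.9 CPM (NDUFB8), with a median of 1.83 CPM. Medians in controls were 33.6 CPM per kilobase for the other 6 core subunits, 46.5 for the other 25 accessory subunits and 24.1 for the 8 assembly factors. The part that shared sequence has in the changes of these 6 genes was not tested. Of the 39 other complex I genes 33 fell and 1 rose, with a median log2 fold change of −0.96.

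**Figure D2:**
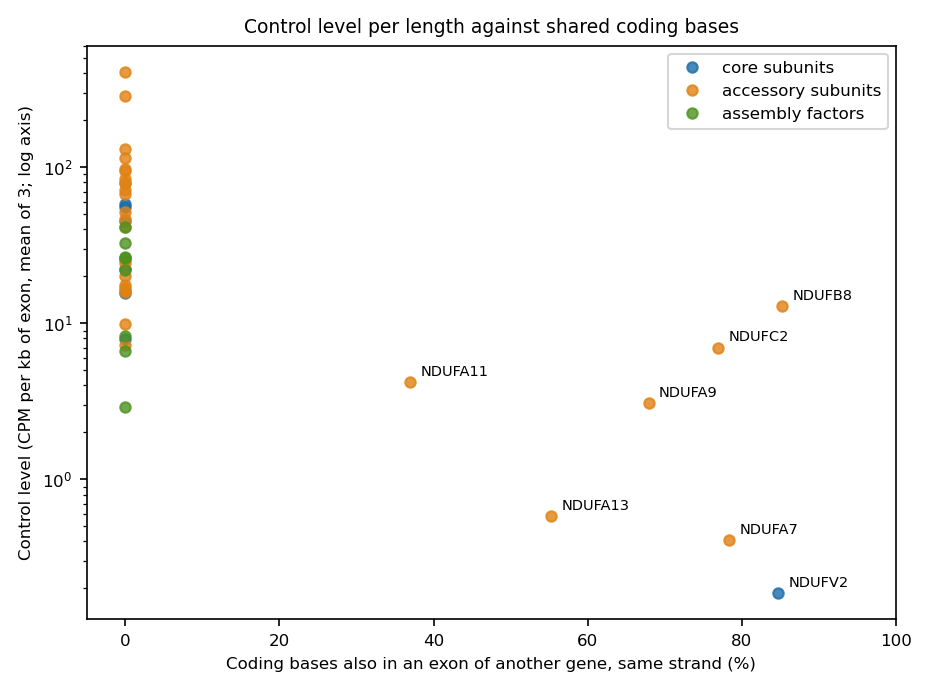
Control level (y axis, CPM per kilobase of exon, mean of 3 libraries, log axis) against the percent of coding bases that also lie in an exon of another gene on the same strand (x axis), 1 point per complex I gene. NDUFV2, NDUFA7 and NDUFA13, at 0.187, 0.409 and 0.579 CPM per kilobase, lie below all points without shared coding bases.

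Accessory subunits covered the widest range of change. Of 30 accessory subunits 22 fell, 3 rose and 5 did not pass the test, with a median log2 fold change of −0.87. Without the 5 that had mostly shared coding bases, 20 of 25 fell and 1 rose. The largest fall was that of NDUFAB1, the mitochondrial acyl carrier protein, which also serves fatty acid and lipoic acid synthesis and iron-sulfur cluster assembly. It had 138, 152 and 177 CPM in controls and 28.9, 35.6 and 25.1 CPM with 8p (log2 fold change −2.38, SE 0.12, adjusted p = 5.96e-11). Every 8p value was far below every control value.

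The bases just upstream of NDUFAB1 are shown because this member fell most. They lie at chr16:23596357-23596506 on the minus strand (RefSeq, GRCh38.p14), next to the deposited start of the gene, and hold none of the motifs searched, so no base is in capitals.
NDUFAB1: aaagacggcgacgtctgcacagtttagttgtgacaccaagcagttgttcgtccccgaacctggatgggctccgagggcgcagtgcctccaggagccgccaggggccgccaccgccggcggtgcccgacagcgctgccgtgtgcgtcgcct

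NDUFS5, which sits on the intermembrane-space side of the membrane arm, went from 209, 217 and 250.1 CPM to 68.9, 60.8 and 56.5 CPM (log2 fold change −1.86, SE 0.09, adjusted p = 3.93e-11). NDUFA6, which docks the acyl carrier protein on the matrix arm, went from 107, 112 and 118 CPM to 35.4, 31.6 and 34.2 CPM (−1.73, adjusted p = 2.19e-11). NDUFB7, another protein of the intermembrane-space face, went from 138, 147 and 171 CPM to 43.9, 44.6 and 51.3 CPM (−1.70, adjusted p = 1.55e-10). In all 3 genes the treated cultures stood apart from the controls. NDUFB8 and NDUFA9, both with mostly shared coding bases, had log2 fold changes of −1.60 (adjusted p = 2.74e-08) and −1.56 (adjusted p = 1.59e-08).

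The other 16 accessory subunits that fell ran from −1.32 to −0.36 on the log2 scale, each with all treated values under all controls. NDUFS6, a zinc-binding protein of the NADH-oxidising module, went from 113, 119 and 132 CPM to 46.5, 47.5 and 52.1 CPM (adjusted p = 7.13e-10). NDUFB9, the most abundant of all 45 in CPM, went from 428, 457 and 522 CPM to 249.7, 286 and 236 CPM (log2 fold change −0.87). NDUFS4, a subunit of the matrix arm often mutated in inherited complex I deficiency, had 46.5, 46.1 and 54.4 CPM in controls against 34.9, 34.6 and 36.7 CPM (−0.47, adjusted p = 2.14e-04).

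In the matrix arm, NDUFA12 had a log2 fold change of −1.05, NDUFA5 of −0.98 and NDUFA2 of −0.87. In the proximal membrane arm, NDUFA8 had −1.15, NDUFA3 −0.87, NDUFA1 −0.77 and NDUFA11 −0.59. In the distal membrane arm, NDUFB6 had −1.17, NDUFB10 −1.04, NDUFB4 −0.96, NDUFB3 −0.79 and NDUFB2 −0.73. NDUFA5 was the steadiest of these with treatment, at 49.2, 49.3 and 49.9 CPM against 92.4, 84.9 and 115 CPM in controls.

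NDUFB11, a subunit of the distal membrane arm, fell least of the 22. It went from 125, 126 and 149.9 CPM to 92.3, 118 and 99.8 CPM (adjusted p = 0.00291). Under upper quartile scaling it did not pass (log2 fold change −0.18, adjusted p = 0.101), and that scaling raised the median of all genes by 0.19. RBM10, on the other strand, overlaps 44.9% of its exon bases and held 8179 counts over the 6 libraries. RNF113A overlaps 44.5% of the exon bases of NDUFA1 in the same way, with 2078 counts. BRAF overlaps 27.9% of those of NDUFB2, with 2799 counts. NDUFA1 and NDUFB2 had log2 fold changes of −0.77 and −0.73. Without the strand setting of the counting, the reads of such pairs cannot be told apart.

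NDUFB5, a subunit of the distal membrane arm, was the only accessory subunit without shared coding bases that rose. It had 94.3, 85.7 and 118 CPM in controls and 138, 141 and 132 CPM with 8p, so that all treated cultures lay above all controls. Its log2 fold change was 0.47 (SE 0.10, adjusted p = 4.17e-04), in a range from 0.35 to 0.58 when each library was left out in turn. NDUFB5 lies on chromosome 3, 179604690 to 179627647, plus strand.

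The other 2 that rose, NDUFA13 and NDUFA7, rested on few counts and on mostly shared coding bases. NDUFA13, also known as GRIM-19, had 1.81, 1.59 and 1.31 CPM in controls and 5.12, 3.90 and 2.90 CPM with 8p (log2 fold change 1.33, SE 0.28, adjusted p = 5.66e-04). NDUFA7 had 0.590, 0.327 and 0.816 CPM against 1.46, 0.839 and 1.69 CPM (1.2, SE 0.44, adjusted p = 0.0229). Its call was lost without control replicate 1 (adjusted p = 0.0773), control replicate 2 (0.138), 8p replicate 1 (0.0670) or 8p replicate 3 (0.0992). It was also lost without a filter on low counts (0.0585). RPS28, a ribosomal protein gene on the other strand with 107655 counts over the 6 libraries, overlaps 6.3% of the exon bases of NDUFA7. Besides AC011448.1, YJEFN3 overlaps 4.84% of the exon bases of NDUFA13 on the same strand and held 990 counts.

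Among the 5 accessory subunits that did not pass, NDUFA10, a kinase-like protein of the membrane arm, had 144, 149 and 158 CPM in controls and 134, 143 and 137 CPM with 8p (log2 fold change −0.12, SE 0.07, adjusted p = 0.112). Its groups were close but did not overlap, and it passed as lower without 8p replicate 2 (−0.18, adjusted p = 0.0281). NDUFB1 had 31.7, 40.6 and 46.3 CPM against 32.5, 32.7 and 34.9 CPM (log2 fold change −0.24, SE 0.12, adjusted p = 0.0763), so its groups overlapped, and it passed without control replicate 1 (−0.40, adjusted p = 0.00387). NDUFV3, a variable subunit of the NADH-oxidising module, had 47.1, 45.9 and 46.2 CPM in controls and 50.8, 44.3 and 51.5 CPM with 8p (0.07, SE 0.08, adjusted p = 0.431). It was called higher with upper quartile scaling (0.26, adjusted p = 0.0108). NDUFC1 had 0.02 (SE 0.10, adjusted p = 0.840) and NDUFC2 0.15 (SE 0.16, adjusted p = 0.396), both with overlapping groups and both in the proximal membrane arm.

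NDUFC1 is shown as the member closest to 0, from chr4:139302552-139302701 on the minus strand, again without a motif.
NDUFC1: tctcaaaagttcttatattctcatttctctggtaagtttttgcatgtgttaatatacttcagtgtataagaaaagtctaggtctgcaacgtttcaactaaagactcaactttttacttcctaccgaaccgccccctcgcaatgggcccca

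**Figure D3:**
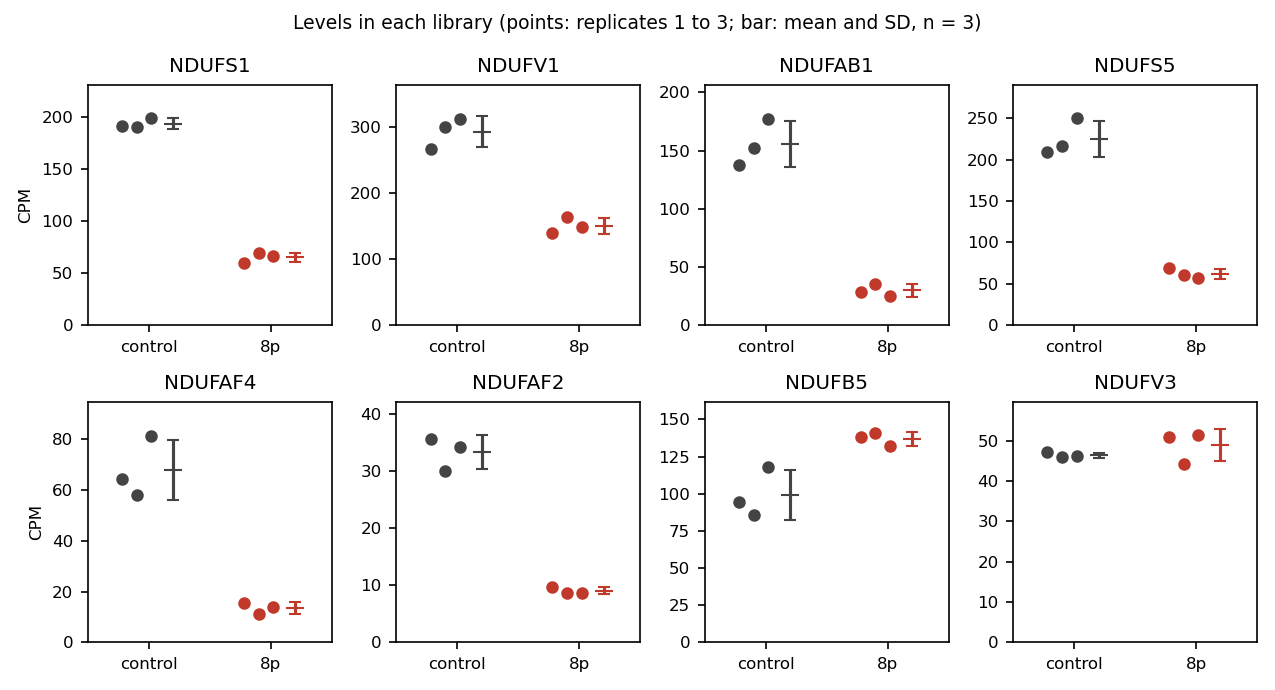
CPM (y axis, from 0) in each control library (grey points, replicates 1 to 3 from left) and each 8p library (red points) for 8 members, with the mean and SD (n = 3) beside them. The red points lie below the grey ones for the first 6 genes, above them for NDUFB5 and on both sides of them for NDUFV3.

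Assembly factors were mostly lower too. Of the 8 NDUFAF genes 7 fell and none rose, and their median was 49.9% of the control level. NDUFAF4, which works with NDUFAF3 on the ubiquinone-binding module, went from 64.6, 58.2 and 81.2 CPM to 15.6, 11.1 and 13.9 CPM (−2.33, SE 0.14, adjusted p = 4.24e-10). NDUFAF3 had 58.3, 67.5 and 65.2 CPM in controls and 34.9, 26.2 and 37.1 CPM with 8p (−0.96, SE 0.11, adjusted p = 1.44e-06). Both partners thus had all treated values under all control values, and the log2 fold change of NDUFAF4 lay between −2.47 and −2.21 with each library left out.

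The bases upstream of NDUFAF4 (chr6:96897892-96898041, minus strand) are shown because it had the largest fall among the assembly factors. They held no motif that was searched.
NDUFAF4: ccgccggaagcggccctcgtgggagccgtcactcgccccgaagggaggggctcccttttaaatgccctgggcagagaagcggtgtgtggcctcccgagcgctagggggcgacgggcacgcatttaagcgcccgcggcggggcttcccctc

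NDUFAF2, a late-acting factor and paralog of the subunit NDUFA12, went from 35.7, 30 and 34.2 CPM to 9.72, 8.63 and 8.70 CPM (log2 fold change −1.88, SE 0.12, adjusted p = 6.94e-10). NDUFA12 itself fell by 1.05 on the log2 scale (adjusted p = 2.78e-08). NDUFAF8 and NDUFAF5 act as partners, NDUFAF5 being the enzyme that hydroxylates NDUFS7. They had log2 fold changes of −1.18 (adjusted p = 2.85e-08) and −1.02 (adjusted p = 2.04e-06). NDUFAF1, part of the complex that assembles the proximal membrane arm, had −0.99 (adjusted p = 2.71e-07), and NDUFAF6, an early-acting factor, −0.88 (adjusted p = 2.86e-07). NDUFAF7, a methyltransferase, was the exception, at 24.5, 22.7 and 25.7 CPM in controls and 22.7, 20.4 and 20.0 CPM with 8p. Its groups met at their edges, and its log2 fold change of −0.21 (SE 0.10) did not pass (adjusted p = 0.0814). It passed without control replicate 2 (−0.28, adjusted p = 0.0499) and without 8p replicate 1 (−0.29, adjusted p = 0.0380).

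Assembly factors without an NDUFAF name showed the same direction. All 12 of them fell, at a median of −0.87 on the log2 scale, where 36.9% of all genes tested were called lower. DMAC1, required for the distal membrane arm, fell by 1.72 (adjusted p = 5.42e-10), from 65.9 ± 5.82 to 20.0 ± 2.37 CPM. FOXRED1, a flavoprotein, fell by 1.59, and ECSIT, a partner of NDUFAF1, fell by 1.48 on the log2 scale. TMEM126B, another member of the NDUFAF1 complex, fell by 0.39 (adjusted p = 0.00248), the least of the 12.

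The 3 classes overlapped widely in their changes. Without the genes of mostly shared coding sequence, the summed level of the 6 core subunits was 1015 ± 68.0 CPM in controls and 494 ± 27.8 CPM with 8p (SD, n = 3), a ratio of 0.487. The 25 accessory subunits summed to 2647 ± 241 and 1464 ± 19.4 CPM, a ratio of 0.553, and the 8 assembly factors to 360.0 ± 28.8 and 161 ± 5.40 CPM, a ratio of 0.446. The median log2 ratio to the control mean was −1.19, −1.01 and −1.13 for core subunits in 8p replicates 1 to 3, −0.83, −0.94 and −0.80 for accessory subunits, and −1.03, −1.04 and −0.97 for assembly factors. In each treated library the accessory median was thus the one nearest to 0. Within the 39 genes, 8p replicate 2 was the lowest treated library for 11 and the highest for 16. The distances between the class medians were small beside the range inside the accessory class, from −2.38 to 0.47, and were not tested.

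**Figure D4:**
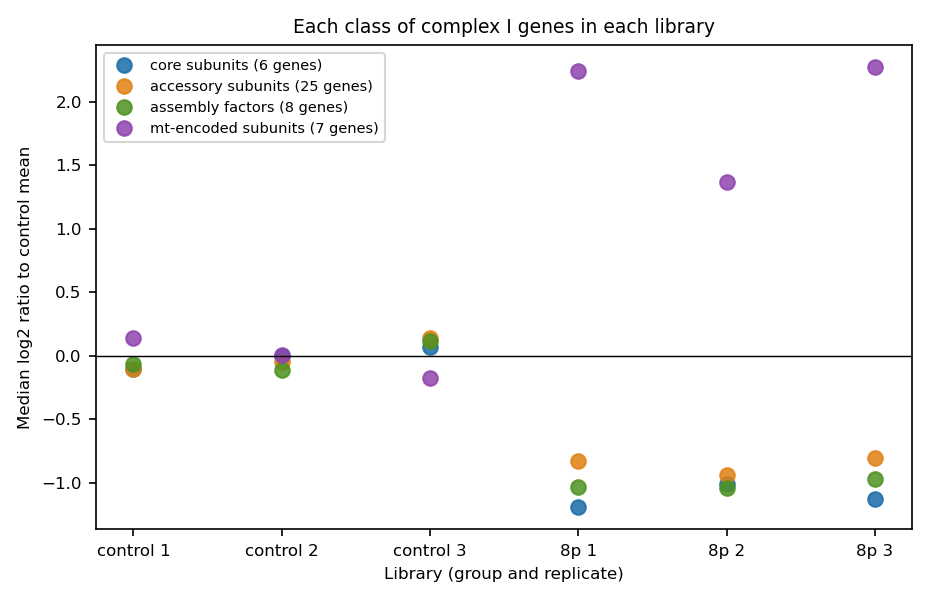
Median log2 ratio of each library to the control mean (y axis) for each class of complex I genes without mostly shared coding bases, and for the 7 mitochondrially encoded subunits. The nuclear classes lie between −1.19 and −0.80 in the 8p libraries, and the mitochondrially encoded subunits at 2.24, 1.37 and 2.27.

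By position in the enzyme, all parts held genes that fell. In the NADH-oxidising module 7 of the 8 genes without mostly shared coding bases fell (median log2 fold change −1.01), and in the ubiquinone-binding module 5 of 5 (−1.06). In the proximal membrane arm 5 of 7 fell (−0.77), with NDUFA10 and NDUFC1 not called. In the distal membrane arm 8 of 10 fell (−0.83), with NDUFB5 higher and NDUFB1 not called. NDUFAB1 belongs to both arms and was left out of this grouping. Differences between the modules were not tested.

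Levels per length differed far more between genes than between groups. Among the 39 genes without mostly shared coding bases, the control level per kilobase of exon ran from 2.89 CPM (NDUFAF5) to 411 CPM (NDUFS5), a 143-fold range, and the range with 8p was 79.6-fold. The order was largely kept, with a Spearman rank correlation of 0.88 between the control and the 8p means across the 39 genes, which share libraries and lengths. Among the 6 core subunits without mostly shared coding bases, NDUFV1 (57.9 CPM per kilobase) was highest in controls, and NDUFS7 (7.89) was lowest. The deposited length counts every annotated exon, 12268 bases for NDUFS1 and 548 for NDUFS5, so genes with long alternative exons appear lower on this scale.

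The mitochondrially encoded subunits moved the opposite way. All 7 MT-ND genes rose, with a median log2 fold change of 1.98, from 1.90 (MT-ND6) to 2.28 (MT-ND4L). Of all genes tested, 37.9% were called higher. MT-ND1, which forms part of the ubiquinone channel, had 1247, 1099 and 989 CPM in controls and 6234, 3242 and 6052 CPM with 8p (2.22, SE 0.18, adjusted p = 2.56e-08). MT-ND6, the only subunit encoded on the light strand of mitochondrial DNA, had 250.3, 214 and 219 CPM against 980.0, 670.1 and 902 CPM (1.90, SE 0.12, adjusted p = 6.09e-10). In both genes 8p replicate 2 was the lowest of the treated libraries, though above every control. Without that library the log2 fold changes were 2.43 for MT-ND1 and 2.02 for MT-ND6.

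The 7 genes together made up 4750.1 ± 546 CPM in controls and 19968 ± 6731 CPM with 8p (SD, n = 3). In a fit without mitochondrially encoded genes, 6 core subunits, 22 accessory subunits and 7 assembly factors again fell, and the class medians moved by no more than 0.01 on the log2 scale. The labels name poly(A) capture or ribosomal RNA removal without saying which was used, a step on which counts of mitochondrial transcripts depend.

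Complexes II to V of the respiratory chain gave the setting for complex I. Of their 38 listed nuclear genes 35 fell and none rose (median log2 fold change −0.98). Of all genes tested, 36.9% were called lower and 37.9% higher. By complex, 4 of 4, 8 of 9, 10 of 10 and 13 of 15 genes fell. The largest falls were those of SDHB in complex II (−1.15), UQCRQ in complex III (−1.99), COX7B in complex IV (−1.70) and ATP5MC1 in complex V (−2.41). That median lies next to the −0.96 of the 45 complex I genes, and no difference between the complexes was tested.

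NDUFA4 and NDUFA4L2 met the name rule although NDUFA4 is now placed in complex IV, and NDUFA4L2 is its hypoxia-responsive paralog. NDUFA4 had 180.3, 175 and 185 CPM in controls and 106, 57.7 and 95.3 CPM with 8p, with 8p replicate 2 lowest (log2 fold change −1.06, SE 0.15, adjusted p = 8.94e-06, or −0.87 without that library). NDUFA4L2 went from 5.61, 5.61 and 5.01 CPM to 1.86, 1.92 and 1.82 CPM (−1.53, SE 0.22, adjusted p = 1.13e-05). NDUFC2-KCTD14, a readthrough row that shares all its exon bases with NDUFC2 and KCTD14, had no count in any library and was not tested.

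**Figure D5:**
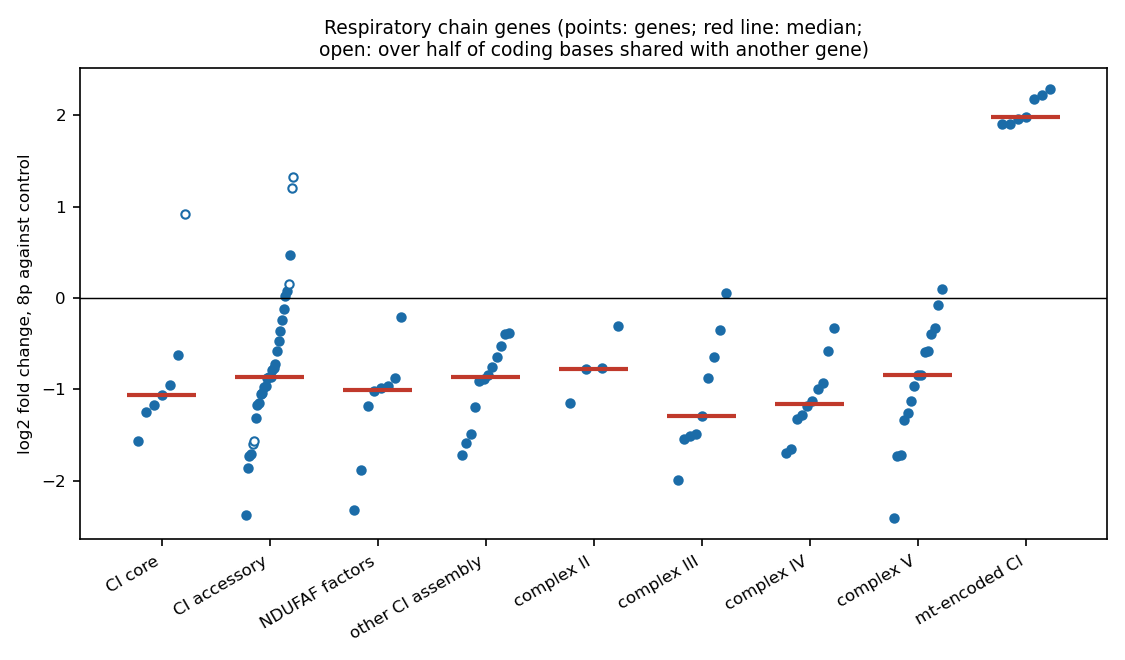
Log2 fold change (y axis, 8p against control) of each tested gene, by class of complex I and by respiratory complex, with the median in red. Medians of the nuclear groups lie between −1.30 (complex III) and −0.77 (complex II), and that of the mitochondrially encoded complex I genes at 1.98.

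Regulators of mitochondrial gene expression were mixed. Of 12 tested regulators 6 fell and 2 rose, beside 36.9% called lower and 37.9% called higher over all genes tested. MYC, a growth-promoting transcription factor, fell by 2.35 on the log2 scale (adjusted p = 3.41e-13), and the coactivator PPRC1 fell by 1.49. Of the machinery that transcribes mitochondrial DNA, TFB2M fell by 1.83, TFAM fell by 1.27 and the polymerase POLRMT fell by 0.83. GABPB1, the partner of GABPA, fell by 0.88. CREB1 rose by 0.99 (adjusted p = 3.23e-08) and the coactivator PPARGC1B by 0.24 (adjusted p = 0.0485), a call that was lost in 13 of 16 alternatives, among them each library left out (adjusted p = 0.250 without control replicate 3). The change of NRF1 was −0.19 (adjusted p = 0.0969), that of GABPA −0.18 (adjusted p = 0.0524), that of ESRRA 0.13 (adjusted p = 0.171) and that of YY1 −0.05 (adjusted p = 0.481). GABPA passed as lower without control replicate 2 (−0.26, adjusted p = 0.0221) or 8p replicate 2 (−0.23, adjusted p = 0.0252). NRF1, GABPA and YY1 are factors known to bind promoters of respiratory genes.

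Start-site sequence was examined because the members moved together. RefSeq windows of 250 bases before to 50 after a start site were held for 40 of the 48 members, in 52 windows. NDUFA4, NDUFA4L2, NDUFAF6, NDUFB5, NDUFB9, NDUFC2 and NDUFS5 were among those without one. Both strands were searched for the NRF1 motif, for its form with a free base in the middle, which includes the first, and for the YY1 motif, all in capitals in the sequences below. The ETS letters CCGGAAGT and the E-box CACGTG were searched likewise. The NRF1 letters were in 3 windows of members and 1.24% of all 35116 windows, and the freer form in 7 and 5.78%. The ETS letters were in 2 and 4.14%, the E-box in 4 and 7.26%, and the YY1 letters in 7 and 1.2%.

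NDUFB4, a distal membrane arm subunit, had the NRF1 letters and a further match to the freer form, both in capitals here (chr3:120596159-120596308, plus strand).
NDUFB4: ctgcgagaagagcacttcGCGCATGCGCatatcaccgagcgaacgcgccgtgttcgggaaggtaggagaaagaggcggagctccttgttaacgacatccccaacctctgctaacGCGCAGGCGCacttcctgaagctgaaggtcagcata
Its level went from 125, 119.9 and 137 CPM to 74.1, 47.6 and 74.8 CPM, with 8p replicate 2 lowest and no overlap between groups. Its log2 fold change was −0.96 (SE 0.13, adjusted p = 6.16e-06), and −0.81 without that library.

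The YY1 letters, in capitals below, stood 11 to 26 bases into the transcript of 6 members, on the coding strand. Each run is 30 bases from GRCh38.p14 and is shown because these letters had the highest share among members relative to all windows. In 5 of the 6 genes, all but NDUFAF8, the letters hold the annotated start codon, so they are coding sequence too.
NDUFA6 (chr22:42090728-42090757): atgctttggcAAGATGGCGGggagcggcgt
NDUFA9 (chr12:4649114-4649143): attgtgggaaAAGATGGCGGctgccgcaca
NDUFAF8 (chr17:81239317-81239346): ggacggacctAAGATGGCGGcctccagggg
NDUFB8 (chr10:100529835-100529864): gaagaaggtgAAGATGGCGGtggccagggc
NDUFS4 (chr5:53560650-53560679): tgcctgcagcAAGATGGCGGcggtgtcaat
NDUFS7 (chr19:1383914-1383943): ggccgaggccAAGATGGCGGtgctgtcagg
All 6 genes fell, with log2 fold changes from −1.73 (NDUFA6) to −0.47 (NDUFS4) and a median of −1.41. Of the 34 matched members without these letters 33 were tested and 25 fell, with a median of −0.96. Without the genes of mostly shared coding sequence, among them NDUFA9 and NDUFB8, the medians were −1.22 for the 4 genes with the letters and −0.97 for the 30 without. This is a description of letters and levels, and no difference was tested.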

How the data were processed

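Gene counts from 6 libraries were used, and the deposited values are the authors' raw read counts, whole numbers with different totals. The deposited gene length, which falls under no standard unit, was used for levels per kilobase. Per the submitters' processing notes the build was hg38, and the tools named were edgeR 3.22.5, DESeq2 1.20.0, featureCounts 1.5.0-p3 and HISAT2 2.0.5. Strand and overlap settings are not given in the sources used here. All 58735 rows matched GENCODE release 29 in position, from which exon and coding overlaps were computed.

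Counts were fitted in R 4.3.3 with edgeR 4.0.16 (TMM, filterByExpr, quasi-likelihood F test, group as the only term) over 13822 genes, with Benjamini-Hochberg adjustment and a threshold of 0.05. The standard error is the log2 fold change over the root of F. Alternatives were DESeq2 1.42.0, limma-voom (limma 3.58.1), 3 other scalings, other filters, gene subsets, the replicate number as a block and each library left out. The code was tested on simulated counts. Members and lists were chosen with earlier results of these data known. Named were the core subunits, of which 1 is counted but its values are not reported here, NDUFAF, MT-ND and non-complex I rows, accessory subunits at either end or not called as lower, list members with the largest changes, and any regulator. Other members and partners named were chosen after their values were seen. TMM scaling takes the bulk of genes as unchanged.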

Additional observations from a re-analysis of the deposited data

How the results depend on the processing

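Under all alternatives run, the counts called lower were 6 core subunits throughout, 20 to 24 accessory subunits and 7 or 8 assembly factors. Upper quartile scaling raised the median of all genes by 0.19 and moved the class medians with it. These became −0.87 for core subunits, −0.68 for accessory subunits and −0.82 for assembly factors. With each library left out, medians ran from −1.17 to −1.02 for core subunits, −0.93 to −0.78 for accessory subunits and −1.09 to −0.97 for assembly factors. With the replicate block 6 core subunits, 22 accessory subunits and 7 assembly factors were lower. Deviations of same-numbered libraries from their group means had correlations of −0.01, −0.02 and −0.04, against −0.04 to 0.05 for other pairs. With 3 libraries per group such values cannot show whether same-numbered cultures were handled together, and the labels do not say. The fit with the block called 5014 genes lower and 5076 higher, against 5098 and 5232 without it. Over 72 named genes and 1143 refitted values, no called gene changed direction, 19 values lost and 18 gained a call, and 11 changed sign with neither value past the threshold. Among these, PPARGC1B (log2 fold change 0.24, adjusted p = 0.0485) lost its call in 13 of 16 alternatives, including DESeq2 (adjusted p = 0.0951), and had 0.12 without control replicate 3. GABPA gained a call in 6 of 16. NDUFS4 had −0.28 against −0.47 with upper quartile scaling. Low counts limit NDUFV2, NDUFA7 and NDUFA13.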

Other observations

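Iron-sulfur cluster assembly, which supplies the cofactors of the core subunits, was mostly lower as well. Of 11 tested genes 8 fell and 2 rose, with a median log2 fold change of −0.71. Over all genes, 36.9% were called lower and 37.9% higher. BOLA3, a late-acting cluster transfer factor, had 48.5 ± 4.04 CPM in control libraries and 3.35 ± 1.1 CPM after treatment (SD, n = 3), so it fell by 3.86 on the log2 scale (edgeR adjusted p = 1.07e-11). GLRX5, a glutaredoxin of the pathway, fell by 1.40. HSCB, a cochaperone, rose by 0.54 (adjusted p = 0.00319), and the scaffold ISCU by 0.30 (adjusted p = 0.00285).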
